A study of Mus musculus with 2 samples.

Results

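Forkhead (Fox) genes encode transcription factors that share the winged-helix forkhead domain. Their open chromatin was read from DNase-seq of mouse hippocampus. The members were the protein-coding genes of the GENCODE M21 annotation whose symbol is Fox, a letter from a to s and a number, which gave 44 of 21938 protein-coding genes on chromosomes 1 to 19, X and Y. DNase I cuts accessible DNA, and stretches with many cuts are listed as peaks. The tissue, which the labels call layer of hippocampus, came from B6CASTF1/J mice, the F1 cross of C57BL/6J and CAST/EiJ. The animals were female, 8 to 10 months old, and no treatment is named. There was 1 group with 2 libraries, called replicate 1 and replicate 2 here, and each library came from a pool of 2 biosamples. The labels give both libraries the same donor entry, so the spread between them may be partly technical. Reads of the cross were placed on the mm10 assembly, and the effect of strain differences on single sites was not tested.

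Forkhead factors bind DNA through their forkhead domain at a short core motif, such as TGTTTAC or TATTTAC, and the subfamilies differ mostly outside that domain. The FoxO factors act at the end of the insulin and growth factor pathway: the kinase Akt phosphorylates them, which moves them out of the nucleus, and they switch on stress defence, cell cycle arrest and metabolic genes when that input is low. Foxp1, Foxp2 and Foxp4 act in neurons, and Foxj1 drives the programme of motile cilia. Many other members specify embryonic organs such as liver, thyroid, lens, thymus, kidney or ovary.

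Replicate 1 held 98902 peaks and replicate 2 held 130199. The deposited signal of a peak rose in steps of 0.00606 in replicate 1 and 0.00795 in replicate 2, no source used here gives its scale, and the read depth is therefore not known. Of the marker genes read as a check of the tissue, all 7 neuronal markers and 2 of 3 dentate granule cell markers (Prox1 and C1ql2, not Dsp) had a promoter peak in both libraries. Astrocytes had 4 of 5 markers in both, oligodendrocytes 4 of 6 and interneurons 1 of 5. Over all genes, the share with a promoter peak in both libraries was 59.2%. Of the interneuron, oligodendrocyte and microglia markers, Gad2, Pvalb and Csf1r had one in replicate 2 only. Sox10 and P2ry12 had one in replicate 1 only. None of 4 endothelial and none of 4 choroid plexus markers had one in either library, microglia had 1 of 6 in both, and 2 of 5 markers of neighbouring brain regions, Tcf7l2 and Drd1, also had one in both.

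A promoter peak is a peak within reach of a transcript start, that is, touching the window that extends 500 bp to each side of it, and the promoter signal is that of the highest such peak. A gene with such a peak in both libraries is called open. This held for 21 of the 44 forkhead genes (47.7%), beside 12982 of all 21938 genes (59.2%). It was found in neither library for 20 forkhead genes (45.5%), beside 36.4% of all genes, and in only 1 library for 3 (6.82%), beside 4.44%. All 4 Foxo, all 4 Foxp, all 3 Foxj, both Foxk and both Foxc genes were open in both libraries, as was Foxm1. Of the Foxn genes, 2 of 4 were open in both (Foxn2 and Foxn3), of the Foxd genes 1 of 4 (Foxd2) and of the Foxi genes 1 of 3 (Foxi1). No member of the Foxa, Foxb, Foxe, Foxf, Foxh, Foxl, Foxq, Foxr or Foxs subfamilies was open in both. In bulk tissue, a site that is open in few cells and a site that is weakly open in many cannot be told apart. Forkhead genes had a median of 1 transcript start, beside 3 over all genes, so fewer windows were typically read for them. The effect of this on the shares of open genes and on the promoter signals was not tested.

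The forkhead record starts were rich in CpG, and forkhead genes with a CpG-rich record start were open less often than all such genes. CpG was read at the start of the gene record alone, while a peak at any start of a gene made it open. The CpG ratio is the observed over the expected number of CpG dinucleotides within 500 bp of the start of the gene record, and it had a median of 0.761 over the forkhead genes and 0.552 over all genes. All genes were ranked by this ratio and cut into 5 equal bins, and the highest bin held 17 of the 44 forkhead genes (38.6%). Of those 17, 13 had a promoter peak in both libraries (76.5%), beside 93.7% of all genes in that bin. In the next bin the counts were 4 of 11 forkhead genes (36.4%) and 89.6% of all genes, and in the lower 3 bins 4 of 16 (25.0%) and 37.5%. The exceptions in the highest bin were Foxd3, Foxf1 and Foxi3, with no peak in either library, and Foxf2, with a peak in replicate 2 only. In the next bin Foxb1, Foxb2, Foxd1, Foxe1, Foxe3, Foxl1 and Foxl2 had none. The median ratio was 0.864 for the open and 0.655 for the closed forkhead genes, and 0.187 for all genes with a peak in neither library.

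**Figure D1:**
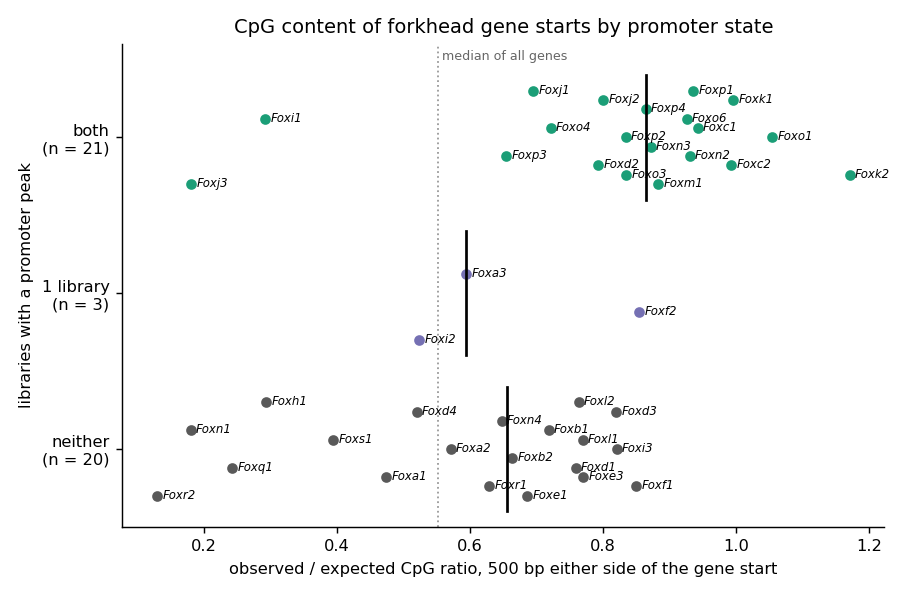
Observed over expected CpG ratio around the start of each forkhead gene record (x axis, no unit), for genes with a promoter peak in both libraries (n = 21), in 1 (n = 3) and in neither (n = 20). Each point is a gene, its height within a row carries no value, black bars are medians, 1 open gene is counted but not drawn, and the dotted line is the median of all genes (0.552). Genes open in both libraries run from 0.180 (Foxj3) to 1.17 (Foxk2). Closed genes run from 0.129 (Foxr2) to 0.850 (Foxf1), so the rows overlap. The ratio is read at the record start, where Foxj2 and Foxj3 had no promoter peak in both libraries. Their highest promoter peaks lie at other starts.

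The open forkhead promoters had lower signals than open promoters of other genes. The median promoter signal over the 21 genes was 1.34 in replicate 1 and 1.45 in replicate 2, and over all 12982 open genes it was 2.12 and 2.48. Only 4 of the 21 (19.0%) lay above the median of all open genes: Foxo6, Foxj1, Foxj3 and Foxk1. The signal was higher in replicate 2 for 19 of the 21 (90.5%, beside 69.5% of all open genes), and the median log2 ratio of replicate 2 to replicate 1 was 0.25 for the forkhead genes and 0.14 for all open genes.

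**Figure D2:**
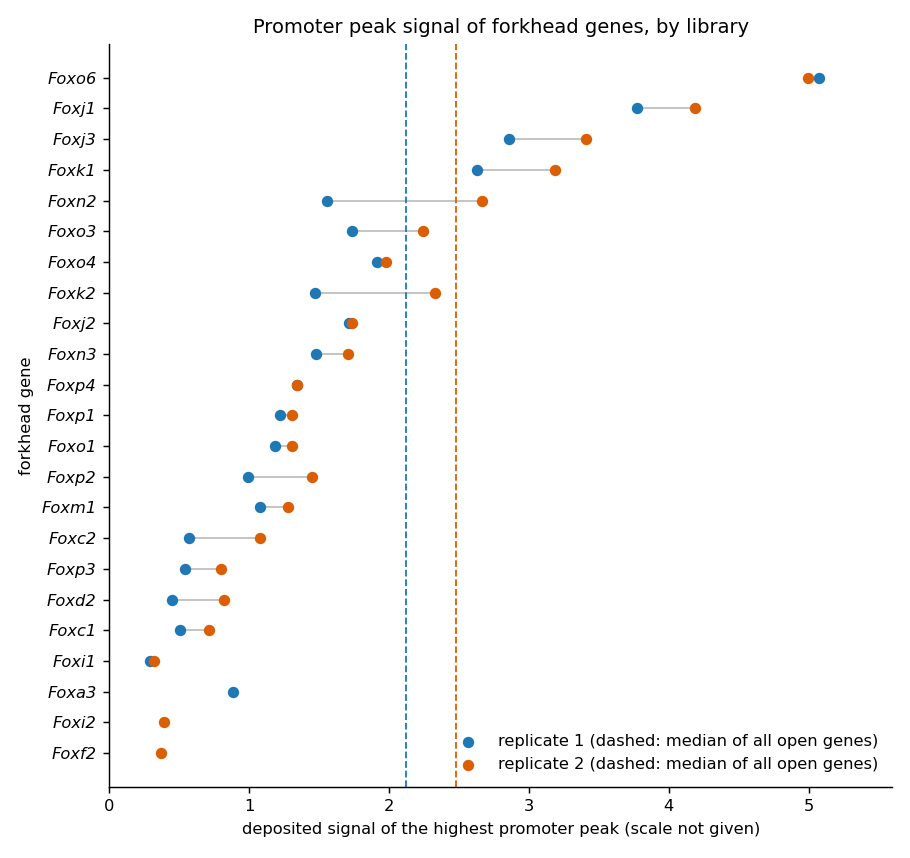
Deposited signal of the highest promoter peak (x axis, scale not given) of the forkhead genes with a promoter peak in at least 1 library, replicate 1 in blue and replicate 2 in orange. Grey lines join the values of a gene open in both libraries, and dashed lines mark the median of all open genes in each library (2.12 and 2.48). Foxo6 and Foxj1 stand above the other genes, Foxa3, Foxi2 and Foxf2 at the bottom have a single point, and 1 open gene is not drawn.

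Among the FoxO genes, Foxo6 (chr4:120267079-120287349, minus strand, mm10), a FoxO factor known for its expression in the brain, had the highest promoter signal of the family with the 500 bp window. Its signal was 5.08 in replicate 1 and 4.99 in replicate 2 (5.04 ± 0.0593, SD, n = 2), which placed it in the top 16.4% of all open genes. The midpoint of this peak lay 612 bp upstream of the annotated start in replicate 1 and 522 bp upstream in replicate 2, in intergenic sequence. Foxo3 (chr10:42181841-42276755, minus strand), a FoxO factor of stress resistance and neural stem cell maintenance, had a lower peak at the start itself, with 1.73 and 2.24 (1.99 ± 0.360, SD, n = 2). Its highest site lay outside the promoter window, 1076 bp upstream of the start, with 7.80 and 6.81 (7.31 ± 0.705, SD, n = 2). That was the highest site outside promoters in any forkhead neighbourhood, and a further site 1416 bp upstream had 2.94 and 2.99. The letters below are the reference sequence of these 2 upstream sites within peaks of both libraries, shown because they carry the highest signals of the FoxO genes. They are written on the plus strand, with capitals for bases inside a footprint of both libraries, a footprint being a short stretch of few cuts inside an open site that can mark a bound protein.
Foxo6 upstream site, chr4:120287801-120287980, plus strand: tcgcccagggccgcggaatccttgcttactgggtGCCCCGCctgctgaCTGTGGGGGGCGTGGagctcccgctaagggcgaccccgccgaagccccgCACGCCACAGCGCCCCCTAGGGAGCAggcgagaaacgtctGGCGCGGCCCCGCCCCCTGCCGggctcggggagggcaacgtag
Foxo3 upstream site, chr10:42277741-42277920, plus strand: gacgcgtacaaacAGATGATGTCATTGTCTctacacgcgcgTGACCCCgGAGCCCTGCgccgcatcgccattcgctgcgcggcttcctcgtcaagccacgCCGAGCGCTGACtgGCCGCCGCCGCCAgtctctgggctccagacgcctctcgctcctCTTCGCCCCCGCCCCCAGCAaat
The footprints of both libraries covered 70 of 180 bases in the Foxo6 site and 78 of 180 in the Foxo3 site, and the stretches held 20 and 23 CpG. The GC content was 74.4% at Foxo6 and 67.2% at Foxo3.

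The other FoxO genes had values below the median of all open genes. Foxo4 (chrX:101254528-101260873, plus strand), a FoxO factor of the cell cycle and of senescence, had 1.91 and 1.98 (1.95 ± 0.0462, SD, n = 2), with the peak 387 and 407 bp upstream of a start. Foxo1 (chr3:52268336-52353221, plus strand), the FoxO factor best known for its part in insulin action, had 1.18 and 1.30 (1.24 ± 0.0867, SD, n = 2). Its peak lay 335 and 365 bp upstream of the start. With the 500 bp window, the order of the 4 genes by promoter signal was Foxo6, Foxo3, Foxo4 and Foxo1, and with a window of 2000 bp Foxo3 (7.31) came before Foxo6 (5.04). Foxo3 and Foxo4 did not differ beyond their spread, since both Foxo4 values lay between the 2 values of Foxo3.

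The Foxj genes were all open, and 2 of them had high signals. Foxj1 (chr11:116330704-116335399, minus strand), the regulator of motile cilia, had 3.77 in replicate 1 and 4.19 in replicate 2 (3.98 ± 0.294, SD, n = 2), in the top 25.9% of open genes, with the peak midpoint 52 bp upstream of its only start in both libraries. Foxj3 (chr4:119537004-119629119, plus strand), known in sperm and muscle, had 2.86 and 3.41 (3.14 ± 0.390, SD, n = 2), and its peak also touched the promoter window of the coding gene Frg2f1. Foxj2 (chr6:122819914-122845366, plus strand) had 1.71 and 1.73 (1.72 ± 0.0133, SD, n = 2) at its second group of starts. The sequence of the Foxj1 peak upstream of the start is shown because Foxj1 was the only 1 of 4 ependyma markers with a promoter peak in both libraries, with capitals for bases in a footprint of both libraries.
Foxj1 promoter site, chr11:116335400-116335540, plus strand: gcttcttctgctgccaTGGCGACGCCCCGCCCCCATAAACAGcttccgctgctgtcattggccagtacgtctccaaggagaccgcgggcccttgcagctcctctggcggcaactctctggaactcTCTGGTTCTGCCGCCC
Ccdc153, Tmem212 and Rarres2, the other 3 ependyma markers, had a promoter peak in neither library. Of 25 genes of ciliated cells read as Foxj1 targets or partners, 20 had a promoter peak in both libraries (beside 59.2% of all genes), with a median mean signal of 1.33 beside 2.30 over all open genes. They ranged from Spag16 at 0.212 and 0.246 to Rsph1 at 9.72 and 10.1. Those with a peak in neither library were Ccdc153, Dnah5, Foxn4, Sntn and Tmem212. Some of these genes, such as Tuba1a, are also used by cells without motile cilia.

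Of the open Foxk and Foxn genes, Foxk1 lay above the median of all open genes and the others below it. Foxk1 (chr5:142401497-142462011, plus strand), a repressor of autophagy genes that works with Sin3 corepressors, had 2.63 and 3.19 (2.91 ± 0.395, SD, n = 2). Foxk2 (chr11:121259990-121309896, plus strand), its paralog, had 1.47 and 2.33 (1.90 ± 0.606, SD, n = 2), so the values of the pair did not overlap. Foxn2 (chr17:88440711-88490533, plus strand) had 1.56 and 2.66 (2.11 ± 0.782, SD, n = 2), the largest spread between libraries among the 21 genes on this scale. Foxn3 (chr12:99190078-99563582, minus strand), a repressor linked to cell cycle checkpoints, had 1.48 and 1.71 (1.59 ± 0.163, SD, n = 2). Foxn1, the regulator of thymic epithelium, and Foxn4, which acts in retinal and spinal progenitors, had a promoter peak in neither library.

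The Foxp genes were all open at a modest level. Foxp4 (chr17:47867133-47924645, minus strand) had 1.34 in both libraries (1.34 ± 0.00337, SD, n = 2). Foxp1 (chr6:98925338-99522721, minus strand), a factor of pyramidal and striatal neurons, had 1.22 and 1.30 (1.26 ± 0.0610, SD, n = 2), and Foxp2 (chr6:14901349-15441977, plus strand), known for its part in speech and vocal learning, had 0.994 and 1.45 (1.22 ± 0.321, SD, n = 2). The values of Foxp4 and Foxp1 lay between the 2 values of Foxp2, so neither differed from Foxp2 beyond its spread, while both Foxp4 values lay above both Foxp1 values. Foxp3 (chrX:7573644-7595245, plus strand), the regulator of regulatory T cells, had 0.539 and 0.795 (0.667 ± 0.181, SD, n = 2), at the first of its 3 groups of starts only. This peak also touched the promoter window of the neighbouring gene Ppp1r3f, whose own start lay 148 bp from a much higher peak with 6.18 and 5.31. The Foxp3 peak held no footprint in either library.

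The remaining open members had signals well below the median of all open genes. Foxm1 (chr6:128362967-128376146, plus strand), a factor of dividing cells, had 1.08 and 1.28 (1.18 ± 0.143, SD, n = 2), and its peak was shared with the promoter window of Rhno1. Foxc2 (chr8:121116171-121118895, plus strand) had 0.570 and 1.07 (0.822 ± 0.356, SD, n = 2) and Foxc1 (chr13:31806633-31812476, plus strand) had 0.503 and 0.716 (0.609 ± 0.150, SD, n = 2). Both are factors of mesenchyme, vessels and meninges. Foxd2 (chr4:114906282-114908873, minus strand) had 0.448 and 0.819 (0.634 ± 0.262, SD, n = 2), and its window also held the start of the noncoding gene Foxd2os. A noncoding start lay in the promoter windows of 9 of the 44 forkhead genes (20.5%), beside 10.4% of all genes. Foxi1 (chr11:34204338-34208089, minus strand), a factor of ion-transporting cells of kidney and inner ear, had 0.291 and 0.318 (0.304 ± 0.0193, SD, n = 2). These values correspond to 48 and 40 steps of the signal, and 99.1% of open genes ranked as high or higher. Of 4 mural cell markers none had a promoter peak in both libraries (Rgs5 had 0.485 in replicate 1 only and Kcnj8 had 0.270 in replicate 2 only), and the 4 endothelial markers had none. How much of each forkhead value came from which cell type was not tested.

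A promoter peak in a single library was found for 3 genes. Foxa3, a factor of liver and gut endoderm, had a peak of 0.885 in replicate 1 with its midpoint 143 bp downstream of the start. Foxi2 had a peak of 0.390 in replicate 2, 463 bp downstream. Foxf2, a mesenchyme and pericyte factor, had one of 0.366 in replicate 2, 577 bp downstream in its own exon. The start nearest to that midpoint was that of Gm27516, 150 bp away. The Foxf2 window also held the start of the noncoding gene 1700018A04Rik. The Foxi2 and Foxf2 values were close to those of Foxi1, the lowest gene open in both libraries.

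The 20 genes with a promoter peak in neither library were Foxa1, Foxa2, Foxb1, Foxb2, Foxd1, Foxd3, Foxd4, Foxe1, Foxe3, Foxf1, Foxh1, Foxi3, Foxl1, Foxl2, Foxn1, Foxn4, Foxq1, Foxr1, Foxr2 and Foxs1. They include factors of endoderm (Foxa1, Foxa2), diencephalon (Foxb1), kidney stroma (Foxd1), neural crest (Foxd3), thyroid (Foxe1), lens (Foxe3), lung and gut mesenchyme (Foxf1, Foxl1), Nodal signalling (Foxh1) and ovary (Foxl2). None of the 20 had a base in the promoter window with a deposited false discovery rate below 0.05 in both libraries. Among all 7983 genes with a peak in neither library, 28 had one in both (0.351%). Such a base is therefore rare wherever no peak was called, and its absence adds nothing to the peak call. The 20 also had none in a single library, and that share over all genes was not computed. The peak nearest to the start of the gene record lay between 1513 bp (Foxh1) and 62581 bp (Foxb1) away in replicate 1, and between 560 bp (Foxs1) and 59182 bp (Foxd3) in replicate 2. Foxa1, Foxd1, Foxd3 and Foxi3 had no peak in the gene record or the 20 kb on either side in either library. The closed genes were short, with a median record of 3508 bp, against 25453 bp for the open ones.

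Several members have starts far apart, and the peaks marked only some of them. Starts within 1000 bp of each other were taken as 1 group. Foxn3 had peaks at the first of its 7 groups (0.660 and 0.708) and, higher, at group 4 (1.48 and 1.71), and at no other. Foxj2 had 0.563 and 0.708 at its first group and 1.71 and 1.73 at its second. The peaks at its first group did not overlap, and each was found in its own library only. Foxp4 had 0.782 and 1.33 at its first group and 1.34 and 1.34 at group 3, so that the order of the pair was clear in replicate 1 only. Foxj3 was open at the second of 3 groups and not at the first, and Foxk2, Foxm1, Foxo3 and Foxp3 were open at the first group alone. Foxp1 was open in both libraries at the first of 13 groups (1.22 and 1.30), while the second was open in replicate 1 only (0.745) and the tenth in replicate 2 only (0.453). Foxp2 was open in both at the first of 7 groups, and at group 4 in replicate 1 only (0.291).

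The share of forkhead promoters with footprints lay below that of open promoters in general. The highest promoter peak held a footprint in both libraries for 17 of the 21 genes (81.0%), beside 95.3% of all open genes. The exceptions were Foxc2, with 0 in replicate 1 and 2 in replicate 2, Foxm1, with 3 and 0, and Foxi1 and Foxp3, with none in either library. Signal moved with this count: among genes with a mean signal below 1 the shares were 2 of 5 forkhead genes (40.0%) and 77.5% of all genes, and from 1 upward 15 of 16 (93.8%) and 99.4%. Summed over the libraries, the numbers were largest at Foxo6 (8 and 5) and Foxn2 (6 and 6).

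The neighbourhood of a gene is its record plus 20 kb on either side. The forkhead neighbourhoods together held 243 peaks in replicate 1 and 303 in replicate 2, counting a peak once where neighbourhoods overlap. The median was 4 peaks per forkhead neighbourhood in each library, beside 4 and 5 over all genes, and per 100 kb it was 6.69 and 7.97 beside 5.55 and 7.15. No peak was found in 8 forkhead neighbourhoods in replicate 1 (18.2%, beside 14.9% of all genes) and in 4 in replicate 2 (9.09%, beside 11.7%). Sharing 1 bp or more with a peak of the other library held for 80.7% of these peaks in replicate 1 (Wilson 95% interval 75.2 to 85.1, counting error only), beside 81.6% of all its peaks. The share was 64.0% in replicate 2 (58.5 to 69.2), beside 62.0%. A footprint was present in 85.2% of the neighbourhood peaks in replicate 1 and 70.6% in replicate 2, beside 80.5% and 71.6% of all peaks.

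**Figure D3:**
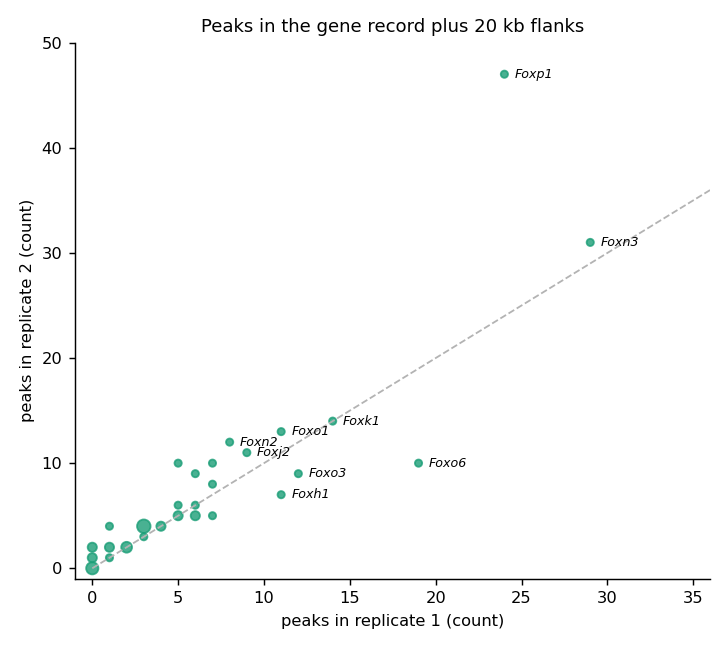
Number of peaks in the gene record plus 20 kb flanks of each forkhead gene in replicate 1 (x axis, count) and replicate 2 (y axis, count). Each point is 1 gene or several genes with the same pair of counts (larger points), and the dashed line marks equal counts. Foxp1 (24 and 47) lies far above the line and Foxo6 (19 and 10) below it, and 1 member is not drawn.

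The libraries differed widely in peak number around Foxp1 and Foxo6, and not in 1 direction. Foxp1 had 24 peaks (4797 bp) in replicate 1 and 47 (8147 bp) in replicate 2, with 19 shared in each. The replicate 2 peaks that were not shared had a median signal of 0.402, beside 0.644 for the shared ones. Foxo6 went the other way, with 19 peaks (4177 bp) in replicate 1 and 10 (2005 bp) in replicate 2. All 10 of the replicate 2 peaks were shared, and the unshared replicate 1 peaks had a median signal of 0.418, beside 1.20 for the shared ones. Foxn3, with 29 and 31 peaks, differed little between the libraries.

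**Figure D4:**
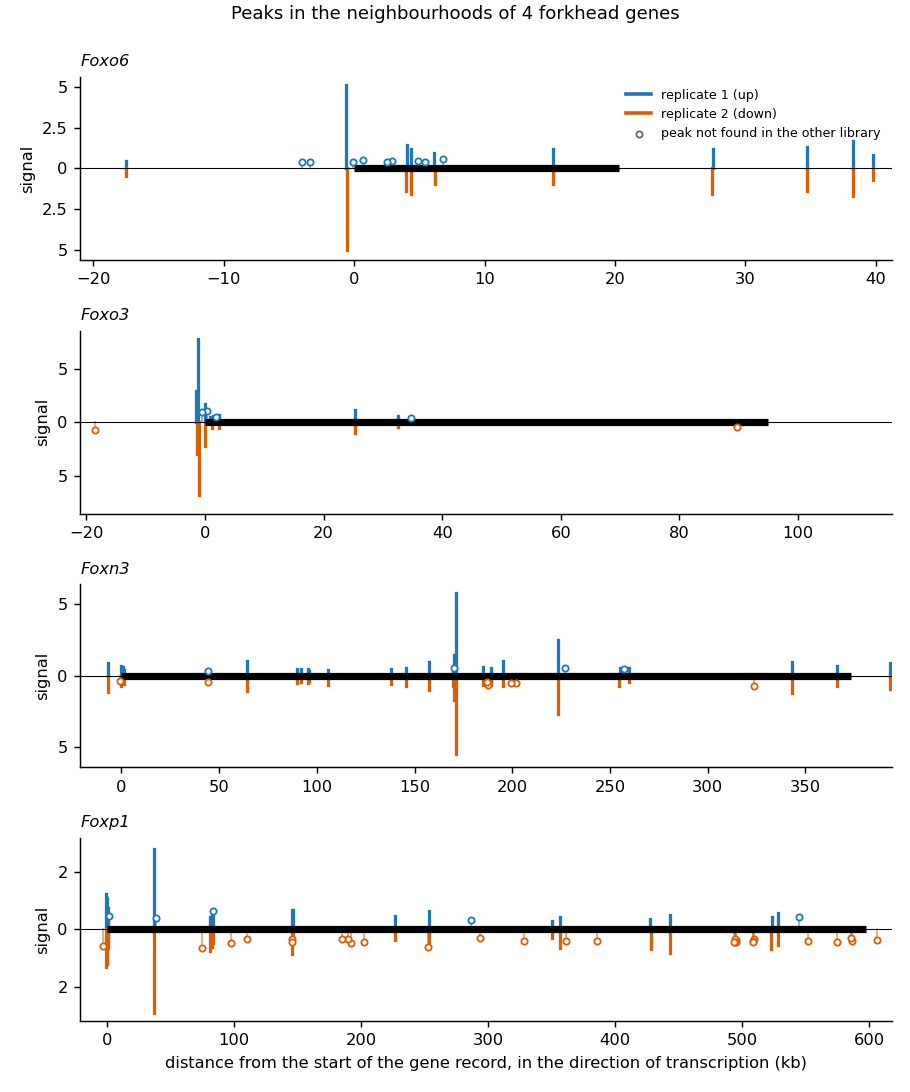
Peaks around Foxo6, Foxo3, Foxn3 and Foxp1 by distance of the peak midpoint from the start of the gene record (x axis, kb, in the direction of transcription), with the deposited signal of replicate 1 upward and of replicate 2 downward (scale not given). Black bars are the gene records and open circles mark peaks with no overlap in the other library. The tall lines at Foxo6 and Foxo3 lie just upstream of the start, and the open circles at Foxo6 are all in replicate 1.

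A site counts as outside promoters here where the midpoint of its peak lies in no promoter window of a coding gene. Such sites shared by both libraries that also did not touch the gene's own window by an edge were counted in replicate 1. They numbered 22 at Foxn3, 14 at Foxp1, 9 at Foxo6, 9 at Foxk1 and 7 each at Foxo1, Foxn2 and Foxo3. A further 2 at Foxp1, 1 at Foxo6 and 1 at Foxo1 touched the gene's own window, and the highest promoter peaks of Foxp1 and Foxo6 are among these. By mean signal, the highest after the Foxo3 site lay 9013 bp upstream of Foxj2, with 6.71 and 5.78 (6.24 ± 0.655, SD, n = 2), and was 269 bp from a start of the noncoding gene Gm5112. A second site near Gm5112, in its exon, had 3.13 and 2.98. Foxn3 followed with an intron site at 5.82 and 5.47 (5.64 ± 0.245, SD, n = 2), which lay 931 bp from an internal Foxn3 start, next to group 4 of its starts. The Foxo6 promoter peak described above ranks next here, because its midpoint lies outside the window that its edge touches. A site 2670 bp upstream of Foxc2, in an intron of Gm20388, had 2.20 in replicate 1 and 4.44 in replicate 2 (3.32 ± 1.59, SD, n = 2), the widest spread among the highest 10. A site with 3.11 and 3.49 in the Foxr1 neighbourhood was 2575 bp from Upk2 and 16415 bp from Foxr1. The last of the highest 10 was a Foxp1 intron site 36990 bp into the record with 2.78 and 2.89 (2.83 ± 0.0745, SD, n = 2). The highest such site of Foxk1 had 1.87 and 3.11, in an intron, and that of Foxo1 had 0.975 and 1.54, 3775 bp upstream.
The 2 sites below are shown because they were the highest outside promoters at Foxn3 and at Foxc2. Capitals mark bases in a footprint of both libraries.
Foxn3 intron site, chr12:99392041-99392260, plus strand: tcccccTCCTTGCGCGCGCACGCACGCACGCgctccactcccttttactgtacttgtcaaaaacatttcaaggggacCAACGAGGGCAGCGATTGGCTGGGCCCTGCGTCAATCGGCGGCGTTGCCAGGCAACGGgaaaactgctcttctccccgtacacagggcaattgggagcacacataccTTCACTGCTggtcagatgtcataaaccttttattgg
Foxc2 upstream site, chr8:121113381-121113620, plus strand: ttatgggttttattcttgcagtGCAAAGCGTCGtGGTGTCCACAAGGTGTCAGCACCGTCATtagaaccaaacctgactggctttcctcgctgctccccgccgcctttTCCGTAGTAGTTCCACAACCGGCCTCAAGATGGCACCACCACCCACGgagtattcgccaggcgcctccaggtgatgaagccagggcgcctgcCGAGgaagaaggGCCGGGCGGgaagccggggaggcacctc
Shared footprints covered 92 of 220 bases at the Foxn3 site and 99 of 240 at the Foxc2 site.

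A total of 3 groups of members lie close together on a chromosome: Foxf1, Foxc2 and Foxl1 on chromosome 8, Foxq1, Foxf2 and Foxc1 on chromosome 13, and Foxd2 and Foxe3 on chromosome 4. Neighbourhoods overlap and share peaks in the chromosome 8 and chromosome 4 groups, and no peak belongs to more than 1 neighbourhood in the chromosome 13 group. In each of the first 2 groups only the Foxc gene was open at its promoter in both libraries. The 86.3 kb of the chromosome 8 group with its flanks held 6 peaks in each library, all shared, and the highest (5.83 and 5.22) was at the promoter of Mthfsd, which is no forkhead gene. The 296 kb of the chromosome 13 group held 7 peaks in replicate 1 and 11 in replicate 2, with 6 shared in each. The highest there reached 1.01 and 1.42 and lay 5252 bp upstream of Foxc1. Foxd2 was open and Foxe3 was not.

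**Figure D5:**
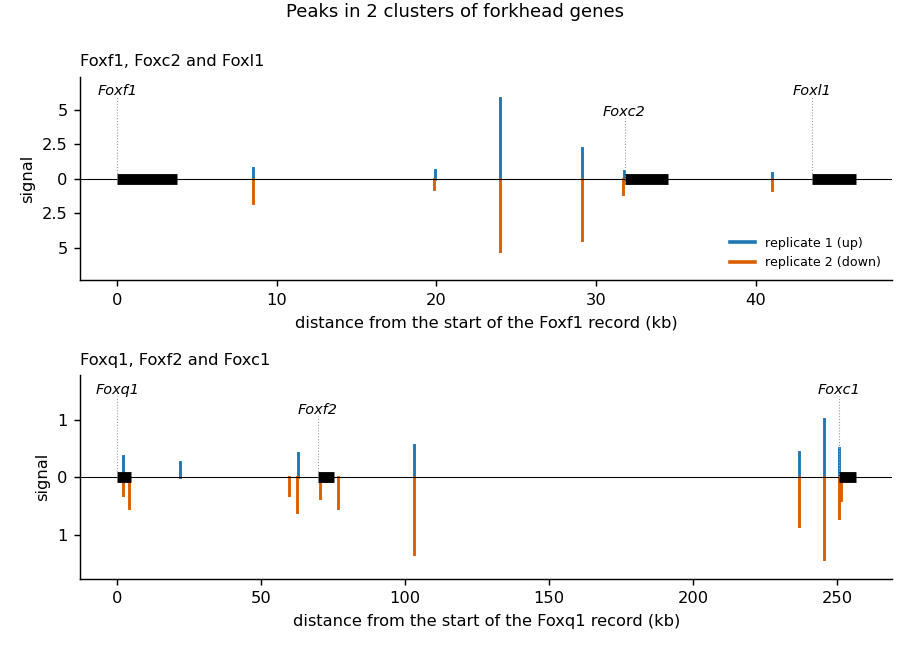
Peaks across the Foxf1, Foxc2 and Foxl1 group and the Foxq1, Foxf2 and Foxc1 group, by distance from the start of the first gene record (x axis, kb), with the deposited signal of replicate 1 upward and replicate 2 downward (scale not given). Black bars are the gene records. The tallest line in the upper panel (5.83 and 5.22) is the Mthfsd promoter, and the lower panel has no signal above 1.42.

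The forkhead core itself, as TGTTTAC or TATTTAC on either strand, was looked for within 100 bp of the centre of each peak. Other forms of the core were not searched. It was present in 12 of 243 neighbourhood peaks in replicate 1 (4.94%), beside 3.69% of all peaks, and in 12 of 303 in replicate 2 (3.96%), beside 4.39%. These shares lay on either side of those of all peaks. Of the highest promoter peaks, 3 of 21 held the core near the centre in replicate 1 (14.3%, at Foxo1, Foxo4 and Foxp4). In replicate 2 it was 2 of 21 (9.52%). Of the highest promoter peaks of all open genes, 1.91% and 2.04% held it. The Foxp4 core also lies inside the replicate 2 peak, but more than 100 bp from its centre. Another Foxp1 promoter peak, lower than its highest, also held TGTTTAC in both libraries. No TGTTTAC or TATTTAC in a promoter peak found in both libraries lay in a footprint of either library. Cores in introns of Foxn3 and Foxo3, both in peaks of both libraries, lay in a footprint in replicate 1 and not in replicate 2. A core in an exon of Foxp2, also in peaks of both libraries, lay in a footprint in replicate 2 and not in replicate 1. The stretches below are shown because they are the promoter and footprinted intron matches found near the peak centre in both libraries. Capitals mark the match, which is written GTAAACA on the plus strand, the reverse complement of TGTTTAC.
Foxo1 promoter core, chr3:52267984-52268140, plus strand: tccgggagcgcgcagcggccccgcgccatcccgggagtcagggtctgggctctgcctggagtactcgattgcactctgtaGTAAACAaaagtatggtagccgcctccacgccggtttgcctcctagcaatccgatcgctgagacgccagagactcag
Foxo4 promoter core, chrX:101254105-101254220, plus strand: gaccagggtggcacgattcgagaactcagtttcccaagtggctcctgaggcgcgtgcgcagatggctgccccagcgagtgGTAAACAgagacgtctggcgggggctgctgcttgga
Foxp1 promoter core, chr6:99522944-99523100, plus strand: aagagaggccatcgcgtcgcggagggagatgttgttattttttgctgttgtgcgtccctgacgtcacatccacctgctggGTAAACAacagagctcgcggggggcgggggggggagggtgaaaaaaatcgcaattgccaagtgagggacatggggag
Foxo3 intron core, chr10:42251384-42251550, plus strand: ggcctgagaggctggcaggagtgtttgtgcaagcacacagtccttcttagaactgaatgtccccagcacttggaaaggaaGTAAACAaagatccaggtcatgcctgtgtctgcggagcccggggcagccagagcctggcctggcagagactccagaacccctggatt
Foxn3 intron core, chr12:99220421-99220573, plus strand: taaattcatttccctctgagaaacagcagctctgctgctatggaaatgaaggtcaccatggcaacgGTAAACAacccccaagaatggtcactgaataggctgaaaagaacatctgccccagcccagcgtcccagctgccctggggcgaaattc
A match is a description of letters and not a binding site, and an absent match says nothing about a factor. The GC box GGGCGG, on either strand, was in 16 of the 21 highest forkhead promoter peaks in each library (76.2%), beside 56.7% and 58.1% of those of all open genes, and CCGGAAG was in 1 of 21 (4.76%), beside 14.9% and 15.1%.

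The genes around the FoxO factors were open almost throughout. All 23 genes of the insulin to FoxO pathway, from the receptors Insr and Igf1r through Irs2 and the Akt kinases to Sirt1 and Ep300, had a promoter peak in both libraries, with a median mean signal of 3.25 beside 2.30 over all open genes. Irs2, an adaptor of the insulin receptor, had 5.20 and 4.98, and Akt1 had 1.27 and 1.61. Pik3ca had 5.59 in replicate 1 and 0.509 in replicate 2, so the libraries gave very different levels for it. Of 22 known FoxO targets, of which Insr, Irs2 and Rictor are also in the pathway list, 21 were open in both libraries with a median of 2.73. The highest was Sesn3, a stress-induced regulator of mTOR signalling, with 9.59 and 7.90, and the lowest was Rictor with 0.782 and 0.986. Trim63, a ubiquitin ligase of muscle, was open in neither. Of 18 cofactors of forkhead proteins, 16 were open in both with a median of 3.48, among them Tle4, a Groucho-type corepressor, with 14.7 and 12.7, while Tle2 and Mta1 were open in neither. These lists hold mostly widely expressed genes, and their counts stand beside the 59.2% of all genes.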

How the data were processed

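DNase-seq of 2 mouse hippocampus libraries was read from the deposited peak and footprint lists, made by the authors per library on mm10, per the labels. Aligner, peak caller and footprint tool: not given in the sources used here. The deposited peak height is a signal of unstated scale, in whole steps in 100.0% of peaks within 0.05 of a step. The authors list intervals with a deposited false discovery rate (a p-value type unit) below 0.05, and all footprints carry 0.01, so they were not ranked. Per library, the larger of 2 peak lists was the main one.

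The members and lists were chosen with earlier results of these data known, and the motifs GGGCGG and CCGGAAG after the files were seen. All quantities are counts, shares or values in each library, with mean ± SD over n = 2, set beside the same over all genes or peaks, with no test. Genes were those of GENCODE M21, matched by symbol, and Tle5 had no record. Each peak got 1 class from its midpoint: promoter first, else exon, else intron, else intergenic. Overlaps needed 1 bp and were checked against bedtools 2.31.1. Overlap code was tested on simulated data. Named were the members, except 1 that is counted but not reported here, the 10 highest shared sites outside promoters and the highest of the 6 genes with most such sites. Sequences are of GRCm38.p6 (RefSeq), at which all 32851 RefSeq promoter rows matched by position, and printed sites leave out annotated UTRs. Python 3.11.15, pandas 2.3.3, numpy 2.4.6, scipy 1.17.1, pysam 0.24.0 and matplotlib 3.10.9 were used. Alternatives were the stricter list, windows of 2000 bp or at the record start alone, flanks of 0 or 50 kb, a reciprocal overlap of 0.5, rescaled signals, shared footprints, whole-peak motif search and leaving out each library.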

Additional observations from a re-analysis of the deposited data

How the results depend on the processing

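The counts of open forkhead genes and of those with a footprint in both libraries stayed within 1.5 times under every alternative run for them. With the stricter lists 18 genes were open in both libraries, without Foxc2, Foxd2 and Foxi1. With the 2000 bp window 24 were open, and the genes open in neither library fell from 20 to 13. Shares of all genes were not computed for the stricter lists, the other windows or 1 library left out. Whether forkhead genes differ from all genes there was therefore not tested. The 2000 bp window added peaks near other genes' starts for Foxa3 (76 bp from Sympk) and Foxh1 (34 bp from Ppp1r16a). In it, the highest Foxp3 peak of replicate 1 lay 148 bp from a start of Ppp1r3f and 787 bp from a Foxp3 start. Dropping genes whose highest promoter peak touches another coding gene's promoter window, an alternative chosen after seeing the data, left 18 of 44 (40.9%, beside 47.7% of all genes), with lower peaks of the dropped genes not counted. The median promoter signal of 1.34 became 1.92 with the 2000 bp window, 1.22 at the record start alone and 1.66 with the stricter lists, each over the genes then open, and 1.34 to 1.45 with 1 library left out. With the 2000 bp window the mean signal of 4 of 21 genes rose by over 1.5 times, among them Foxo3 to 7.31, Foxn3 to 5.64 and Foxp3 to 5.75. At the record start alone Foxn3 had 0.684 and Foxp4 1.05. The median of 4 peaks per neighbourhood became 2.5 with the stricter lists, 7.5 with 50 kb flanks and 1 with no flank. Of the neighbourhood peaks of both libraries together, 71.4% were found in the other library, and 56.8% with a reciprocal overlap of 0.5. The share with a forkhead core was 4.40% over both libraries, 5.45% with the stricter lists, 5.13% in whole peaks and 3.96% to 4.94% with 1 library left out. With 1 library left out, 22 to 23 genes were open, 21 to 22 were not, and 19 to 20 had a footprint. The share found in the other library cannot be computed with a library left out. The causes of these shifts beyond the wider or narrower windows were not tested. No paired analysis was possible because there is 1 group and no test. Depth per library is not known, so the weakest peaks, such as Foxi1, cannot be given a counting interval.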
